A study of Mus musculus with 36 samples.

Results

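The Zfp genes of the mouse encode zinc finger proteins, and the data give the stretches of their transcripts that Ago2 held in colonic tumours. The Zfp peaks were taken by gene name: each peak whose annotated target was a symbol that begins with Zfp and a digit. This gave 75 peaks on 50 genes, out of 7585 annotated peaks. The name alone chose them, but only among peaks that the authors had called from these reads. Of the 75, 53 overlapped only the deposited G12D list and 2 only the WT list. By RefSeq's gene table, 50 of 396 protein-coding Zfp symbols (12.6%) had a peak, beside 3661 of 21900 protein-coding symbols of any name (16.7%). The peaks lay on 17 chromosomes, and 38 of the 50 genes had a single peak. Only 4 genes had 3 or more, namely Zfp36 with 7, Zfp217 with 6, Zfp91 with 4 and Zfp106 with 4.

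The tumours came from C57BL/6 mice that carried Halo-Ago2/+, a tagged Ago2 that binds a resin, together with Villin-CreER/+ and Apc(fl/fl). The Villin promoter drives the inducible Cre in gut epithelium, so 200 µl of 4-hydroxytamoxifen (5 mg/ml) given by enema at 8 to 12 weeks of age deletes Apc there. Both groups share these alleles and this treatment. The 6 tumours called WT have the wild-type K-ras allele, and the 6 called G12D also carry K-Ras-G12D/+, the oncogenic form. Each tumour gave an mRNA, a miRNA and an input-control library, with 3 tumours of each genotype in each of 2 labelled batches. Tumour lawns were resected or scraped from the colon of moribund animals and crosslinked with UV light, so each sample is bulk tissue in which fewer cells of a type and less RNA per cell cannot be told apart. The labels number the samples but do not state that numbers stand for different mice, so the p-values cover the spread between these samples only.

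Ago2 carries a miRNA, which pairs through its seed with a short site in a transcript, most often in the 3′ UTR, and lowers the stability or translation of that transcript. Most Zfp genes encode C2H2 proteins, in which a finger of about the same codons is repeated in tandem, so a short word can recur many times within one open reading frame and among paralogs. Many of these proteins also carry a KRAB domain, which recruits Trim28 and represses retroelements. A separate branch, Zfp36, Zfp36l1 and Zfp36l2, has CCCH fingers that bind AU-rich elements and bring about mRNA decay, chiefly of growth and cytokine transcripts.

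The sequences below are the miRNAs whose sites recur in the Zfp peaks or carry the results described later. They are RefSeq mature sequences (GRCm38.p6), with the seed, bases 2 to 8 from the 5′ end, in capitals.
mmu-let-7i-5p: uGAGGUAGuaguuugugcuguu
mmu-miR-196b-5p: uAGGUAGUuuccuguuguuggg
mmu-miR-29a-3p: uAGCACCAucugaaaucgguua
mmu-miR-17-5p: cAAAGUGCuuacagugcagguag
mmu-miR-92a-3p: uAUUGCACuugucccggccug
mmu-miR-194-5p: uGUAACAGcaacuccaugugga
mmu-miR-23a-3p: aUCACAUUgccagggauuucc
mmu-miR-181a-5p: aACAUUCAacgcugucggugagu
mmu-miR-135a-5p: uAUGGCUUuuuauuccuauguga
The last stands for the family that the annotation calls miR-135ab-5p, of which miR-135b-5p was the abundant member in these tumours.

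The deposited annotation lists seed sites of 88 miRNA families in each peak. By the usual naming, an 8mer site pairs with bases 2 to 8 and has an A opposite base 1, the 7mer classes lack one or the other end, and the 6mer class lacks both. Sites of the 8mer and 7mer classes are called strong here. Of the 75 Zfp peaks, 65 (86.7%) held a strong site, beside 76.0% of all annotated peaks. An 8mer site stood in 32 Zfp peaks (42.7%, beside 35.6% of all). Strong sites of 2 or more families stood in 36 (48.0%, beside 37.7%), and of 3 or more families in 18 of the 75, beside 13.7% of all peaks. Another 7 Zfp peaks held 6mer sites alone, and 3 held no listed site, a class that makes up 11.4% of all peaks. The 130 strong sites belonged to 53 families, so most families stood in very few Zfp peaks.

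let-7, a family that restrains growth genes, had strong sites in the most Zfp peaks, 12 of 75 (16.0%, beside 10.3% of all peaks). These were 4 exon peaks, on Zfp36, Zfp687 and 2 of Zfp217, 6 peaks in 3′ UTRs and 2 in introns. Of the 12, 9 also held a miR-196 site of some class, as did 87.7% of all let-7 peaks. The printed seeds of let-7i and miR-196b share the run AGGUAG, so both annotations read overlapping letters.

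miR-29, known for repressing collagens, was the family with the next most Zfp peaks, 9 of 75 (12.0%, beside 6.10% of all). None of these lay in an exon, where 4.88% of all exon peaks held such a site. The 9 peaks stood on 7 genes, 7 in 3′ UTRs and 2 in 5′ UTRs. They included 2 3′ UTR peaks of Zfp36, 2 of Zfp91, and the 8mer of Zfp36l1. miR-194, a miRNA of gut epithelium, also had no strong site in a Zfp exon, beside 3.40% of all exon peaks. Of its 5 peaks, 4 lay in 3′ UTRs and 1 in the intron of Zfp148. With 18 Zfp exon peaks in all, a count of 0 does not set either family apart from its share over all exon peaks. Of the 7 Zfp peaks of the miR-17 family, encoded in growth-promoting clusters, 3 lay in exons, on Zfp770, Zfp827 and Zfp407. These were 16.7% of Zfp exon peaks, beside 3.52% of all exon peaks. The miR-25 family had 5 Zfp peaks (6.67%, beside 2.73%), 2 of them in exons, on Zfp770 and Zfp185 (11.1%, beside 2.17% of all exon peaks). These shares are descriptions of small counts and were not tested.

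The miR-23 family had strong sites in 6 Zfp peaks (8.00%, beside 3.24% of all peaks), and all 6 were 8mers, a class found in 1.62% of all peaks. They were the exon peaks of Zfp386 and Zfp760 and the 3′ UTR peaks of Zfp655, Zfp87, Zfp810 and Zfp874a. Among all annotated peaks with a strong miR-23 site, 123 of 246 had an 8mer. In 3 of the 6, on Zfp87, Zfp810 and Zfp874a, the annotation also listed a miR-181 site, a pair found in 4.00% of Zfp peaks and 0.831% of all peaks. Zinc finger genes with other names (21 genes such as Klf6, Zbtb42 and Znfx1, with 65 peaks) had both in 4.62%. The complement of the miR-181a seed is UGAAUGU and that of the miR-23a seed is AAUGUGA, which share AAUGU, so the 9 letters UGAAUGUGA hold both sites. Whether the sites overlap within these peaks was not analysed here. Zfp87 and Zfp874a are neighbours on chromosome 13 and Zfp809 and Zfp810 on chromosome 9, and reads of such paralogs may be hard to place. The sources used here do not give how reads that fit several places were counted, so values of these peaks are uncertain.

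**Figure D1:**
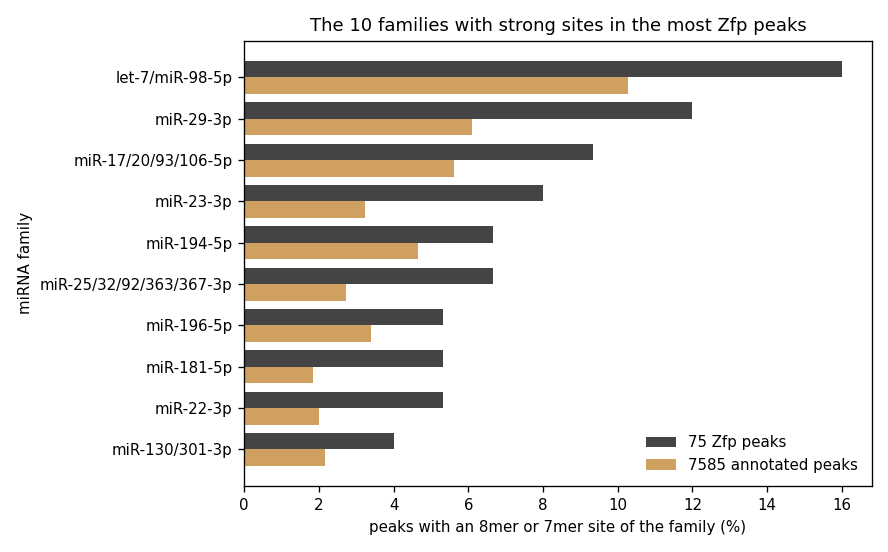
Bars give the percentage of peaks that held an 8mer or 7mer site of each family, in dark for the 75 Zfp peaks and in tan for all 7585 annotated peaks, for 10 families ranked by how many Zfp peaks held such a site. The last place shown is 1 of 5 families tied at 3 Zfp peaks. let-7 stands at 16.0% and miR-29 at 12.0% of Zfp peaks.

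Some families common in this tissue stood in few Zfp peaks, at counts too small to set apart from their shares of all peaks. Others had higher shares in Zfp peaks than in all, such as let-7, miR-17 (9.33%, beside 5.60%) and miR-194 (6.67%, beside 4.65%). The miR-200 family, which marks epithelium, had strong sites in 3 (4.00%, beside 5.68%), on Zfp106, Zfp217 and Zfp53. The miR-15 family had 2 (2.67%, beside 6.24%), on Zfp280d and Zfp809, the latter a KRAB protein that silences retroviruses.

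By region, 18 Zfp peaks (24.0%; Wilson 95% interval 15.8% to 34.8%) lay in exons, beside 32.2% of all annotated peaks. In 3′ UTRs lay 41, and 3 more stood in a starred 3′ UTR class, which the sources used here do not define, 44 together (58.7%, beside 51.9%). Introns held 9 (12.0%, beside 12.1%) and the 5′ UTR classes 4. Exon peaks fell on 15 genes and 3′ UTR peaks on 30. Only Zfp36, Zfp36l2, Zfp217 and Zfp516 had both. The zinc finger genes with other names had 10 of their 65 peaks (15.4%) in exons and 52 (80.0%) in 3′ UTRs. Both kinds of Zfp site held a strong seed match about as often, 16 of 18 exon peaks and 39 of 44 in 3′ UTRs.

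Zfp peaks were mostly low. The signal is a normalised read count, and its median over the 75 peak means was 15.4, beside 18.7 for all annotated peaks. The range ran from 7.0 for a 5′ UTR peak of Zfp219 to 713 for the exon peak of Zfp36l2. The median was 17.2 in exons and 14.2 in 3′ UTRs, beside 19.6 and 19.2 for all peaks of those regions. Of the 75, 28 (37.3%) had a mean of at least 20, beside 46.1% of all peaks. All 75 passed the filter on low values, a mean of at least 5.

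**Figure D2:**
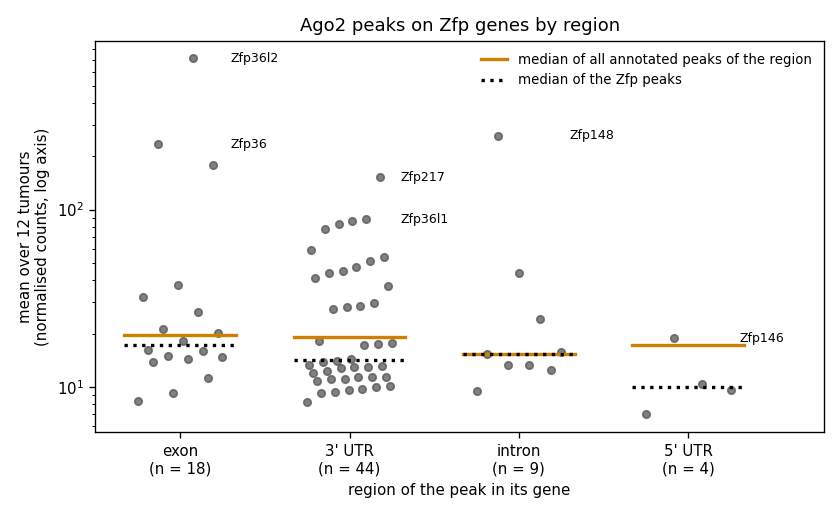
Each point is 1 Zfp peak, placed by region along the x axis and by its mean over 12 tumours in normalised counts on a log y axis. Dotted lines are medians of the Zfp peaks and solid lines medians of all annotated peaks of that region. The exon peaks of Zfp36l2 and Zfp36 and the intron peak of Zfp148 stand above all other Zfp peaks.

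Depth differed between mRNA libraries and bears on each value that follows. Reads recovered in peaks were 30607 in WT replicate 5 and 57037 in WT replicate 6, and 125384 to 974013 in the other 10 libraries. Of the 75 Zfp peaks, 43 were at 0 in WT replicate 5 and 23 in WT replicate 6, against 0 to 6 in the others. Genotype comparisons are therefore also given without those 2 tumours. Markers of colon epithelium fitted the labelled tissue, with peaks on 10 of 14 genes, Epcam, Cdh1 and Vil1 among them. Peaks stood on 1 of 10 leukocyte genes (H2-Eb1), 3 of 10 genes of fibroblasts and smooth muscle (all collagens) and 0 of 5 endothelial genes. The summed collagen signal ran from 18.1 to 679 in WT and from 218 to 709 in G12D. The part of other cell types in the genotype results was not tested.

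The 11 peaks of the CCCH decay genes held 36.5% ± 7.19 (SD, n = 6) of all Zfp signal in WT tumours and 41.1% ± 9.34 (SD, n = 6) in G12D tumours. The exon peak of Zfp36l2 (chr17:84187114-84187162, minus strand, mm10) was the highest Zfp peak. It ran from 22.6 through a median of 274 to 745 in WT, and from 775 through 1164 to 1612 in G12D. Every G12D tumour stood above every WT tumour, the closest being WT replicate 4. The only listed site in this peak is a 6mer of miR-375, an endocrine and gut miRNA. In its 3′ UTR Zfp36l2 had 1 peak, with an 8mer of miR-378, at 6.73 ± 5.80 in WT and 15.4 ± 4.79 in G12D.

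Zfp36, also known as tristetraprolin, had 1 exon peak and 6 in its 3′ UTR. The exon peak (chr7:28378055-28378105, minus strand), with a 7mer of let-7, ran from 18.1 through 149.8 to 303 in WT and from 191 through 285 to 509 in G12D. The groups overlapped: only 2 G12D tumours stood above every WT tumour. Its 6 peaks in the 3′ UTR lie between positions 28376794 and 28377564 and had means of 13.0 to 47.6. The highest 3 of them were at 37.8 ± 21.1, 34.3 ± 8.39 and 21.2 ± 9.62 in WT and at 57.5 ± 11.6, 53.2 ± 22.6 and 34.1 ± 7.97 in G12D. The first and the last of these hold 7mers of miR-29, and the middle one 7mers of miR-423 and miR-27. Zfp36l1 had no exon peak. Its 2 peaks in the 3′ UTR were a miR-29 8mer (70.1 ± 47.9 in WT tumours, 106 ± 33.3 in those with G12D) and a peak with no listed site.

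Among the C2H2 genes, exon peaks were highest on Zfp770, a gene whose role is little known. It ran from 41.7 through 51.8 to 280.5 in WT and from 85.4 through 228 to 596 in G12D. WT replicate 4 stood above 3 of the G12D tumours, so the groups overlapped. The 3 highest G12D tumours are those of batch 2, as is WT replicate 4. The peak holds strong sites of 3 families, an 8mer of miR-196 and 7mers of miR-17 and miR-25. The next exon peaks were far lower. Zfp386, with its miR-23 8mer, had 24.8 ± 20.3 in WT and 50.6 ± 25.4 in G12D, and Zfp758, with sites of miR-96, miR-181 and miR-182, had 26.5 ± 24.2 and 37.8 ± 30.9. Zfp827 ran from 4.53 through 8.26 to 30.1 in WT and from 18.5 through 33.3 to 39.7 in G12D. Only WT replicate 4 reached into the range of the G12D tumours there.

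Zfp106, an RNA-binding protein, had 3 of its 4 peaks in exons, with means of 13.9 to 20.2, and none in its 3′ UTR. The exon peak of Zfp219 stood out by its sites, with 4 listed 8mers of miR-484 and 2 7mers of miR-24 in 1 peak with a mean of 14.4. The exon peak of Zfp516, linked to brown fat genes, was one of only 2 peaks with a lower mean in G12D, at 19.7 ± 20.7 in WT and 12.6 ± 5.09 in G12D. The other was a 3′ UTR peak of Zfp217, at 13.8 ± 15.7 and 10.2 ± 4.42.

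Zfp217, the mouse form of a gene amplified in carcinomas, spread its 6 peaks over exons and the 3′ UTR. Its leading peak (chr2:170109222-170109279, minus strand) is in the 3′ UTR and holds 8mers of miR-21 and miR-24 and 7mers of miR-132 and miR-135. It ran from 22.6 through 68.2 to 262 in WT and from 71.2 through 213 to 369 in G12D. WT replicates 4 and 6 stood within the G12D range, and the other 4 WT tumours were below every G12D tumour. A second peak, with an 8mer of the miR-200 family, had 46.1 ± 54.0 in WT and 126 ± 50.1 in G12D. The 2 exon peaks of Zfp217, each with a let-7 7mer, had means of 26.4 and 8.33.

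Other 3′ UTR peaks with high means were those of Zfp706, Zfp597, Zfp516, Zfp655, Zfp703 and Zfp618, with means of 45.0 to 83.3. Zfp703, a corepressor gene amplified in breast tumours, holds a 7mer of miR-155 and had 29.5 ± 22.5 in WT and 72.6 ± 26.6 in G12D. Zfp655 holds 8mers of miR-23 and miR-361 and had 32.4 ± 28.1 and 75.1 ± 44.1. Zfp91, a ubiquitin ligase of NF-kappaB signalling, had all 4 peaks in its 3′ UTR classes, 2 of them with miR-29 sites. Their means were 41.2, 36.9, 10.2 and 9.24. Neighbouring C2H2 genes of chromosome 17 (Zfp53, Zfp948, Zfp760 and Zfp758, between positions 21500149 and 22376131) had 1 peak each, in introns or exons, with means of 14.7 to 32.1.

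Introns held 9 peaks, of which 1 was high. The intron peak of Zfp148, a factor that binds GC-rich promoters, has a miR-194 7mer and ran from 0 through 80.3 to 376 in WT and from 78.6 through 468 to 651 in G12D. The ranges overlapped widely, with 3 G12D tumours above every WT tumour. Zfp292 had 9.01 ± 13.3 in WT and 78.7 ± 90.3 in G12D, and Zfp948 had 9.22 ± 9.64 and 39.2 ± 30.0.

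**Figure D3:**
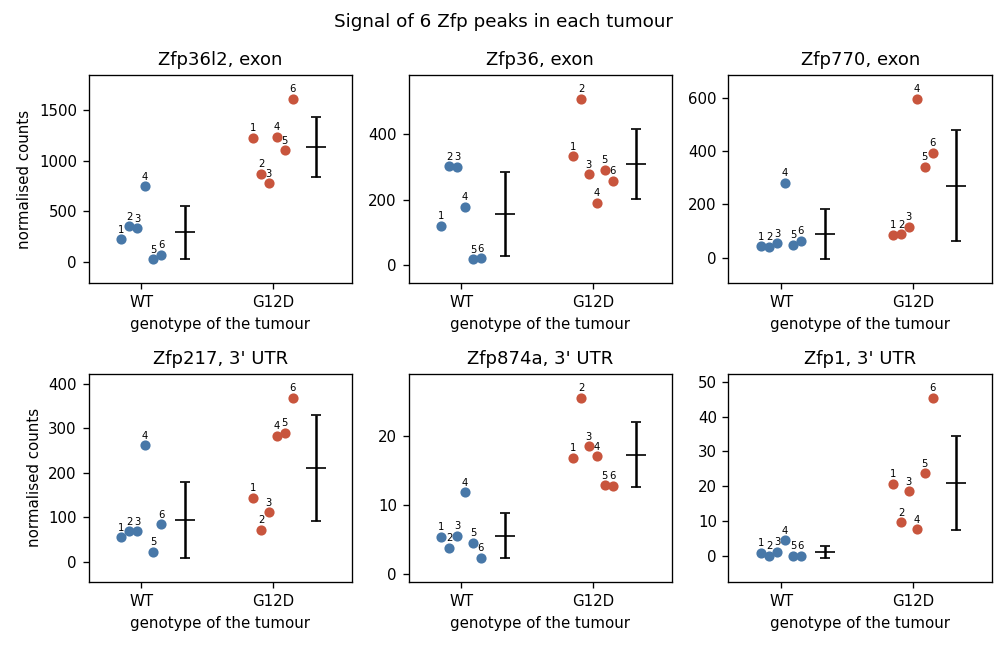
Each point is 1 tumour, numbered by replicate, with normalised counts on the y axis and the mean and SD (n = 6) at the right of each group. The groups do not overlap for Zfp36l2, Zfp874a and Zfp1, and WT replicate 4 is the highest WT tumour in all panels but that of Zfp36.

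The genotype comparison asked which Zfp sites held more or less Ago2 signal in tumours with oncogenic K-Ras. With limma, adjusting for batch, 0 of 75 Zfp peaks passed an adjusted p of 0.05, where 0% of the 7527 tested peaks were called in either direction. At an unadjusted p under 0.05, limma gave 32 of 75 (42.7%) higher in G12D and 0 lower, beside 35.9% of all tested peaks higher. The median log2 fold change was 1.41 over Zfp peaks and 1.33 over all tested peaks, so the Zfp peaks moved with the table as a whole. It was 1.26 in Zfp exons and 1.42 in Zfp 3′ UTRs, beside 1.31 for both regions over all peaks. For the CCCH genes it was 0.96 over 11 peaks, and for all other Zfp peaks 1.42.

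The size of this shift depended on a few libraries and on the scaling. Without WT replicates 5 and 6 the median was 0.41 for Zfp peaks and 0.38 for all peaks, with 0 Zfp peaks called by limma, where 0.0399% of all peaks were called higher and 0% lower. Within batch 1 the medians were 0.48 and 0.43, and within batch 2, which holds both shallow WT libraries, 2.31 and 2.29. In batch 2 alone 5 Zfp peaks were called higher, where 3.55% of all peaks were. Without WT replicate 4, 40 of 75 Zfp peaks were called higher, where 45.1% of all peaks were called higher and 0.173% lower. With a pseudocount of 5 limma called 5 Zfp peaks higher (6.72% of all peaks were, and 0.093% lower), and with array quality weights 10 (10.8%, and 0.505% lower). Rescaling the libraries moved the median of all peaks from 1.33 to 0.61 with TMM factors and to 0.55 with DESeq2 size factors, and the Zfp median stayed 0.09 above it under both. For a genotype effect that differs between batches, limma's interaction test called 0 Zfp peaks (smallest adjusted p = 0.369), where 0.0399% of all peaks were called. With 3 tumours of each genotype in each batch, this does not show that the effects were equal. At an unadjusted p under 0.05 the interaction picked 6 of 75 (8.00%), all with the larger effect in batch 2, beside 12.6% of all tested peaks.

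**Figure D4:**
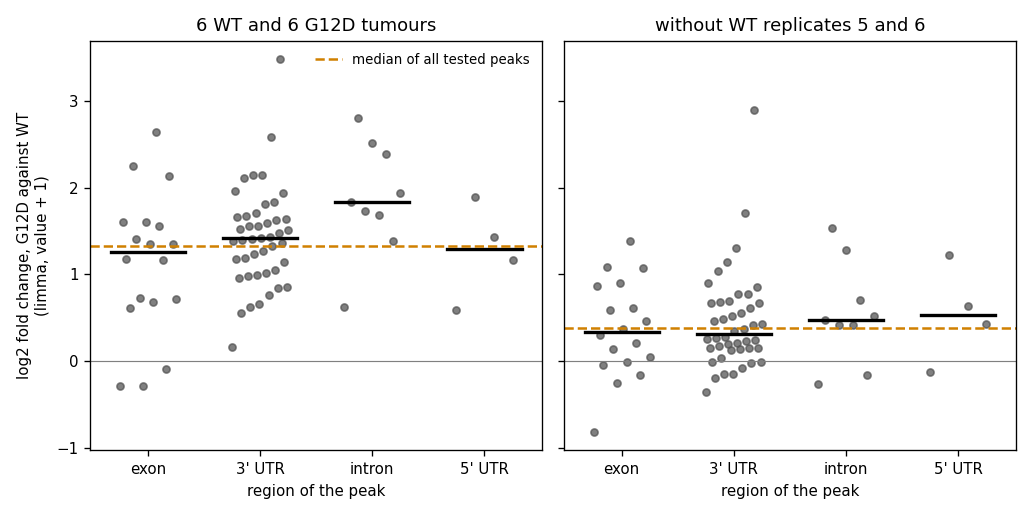
Each point is the log2 fold change of 1 Zfp peak, G12D against WT, by region, from all 12 tumours at the left and without WT replicates 5 and 6 at the right. Black bars are medians of the Zfp peaks and the dashed line is the median of all tested peaks, 1.33 at the left and 0.38 at the right. The points lie around the dashed line in both panels, with the 3′ UTR peak of Zfp1 on top.

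DESeq2 on the recovered reads called 8 Zfp peaks higher and 0 lower, where 9.92% of all peaks were called higher and 0.355% lower. The authors' deposited table called the same 8, with the same fold changes. That match is no second line of evidence, since the counts came from the authors' values and their size factors were used again. The 8 are exon peaks of Zfp36l2, Zfp770 and Zfp827, intron peaks of Zfp292 and Zfp1, and 3′ UTR peaks of Zfp1, Zfp874a and Zfp710. Those of Zfp827, Zfp292, Zfp1, Zfp874a and Zfp710 overlapped the G12D peak list but not the WT list. They thus entered through the genotype where they were high, so their tests are not free of that choice. edgeR's quasi-likelihood test called 1, the 3′ UTR peak of Zfp1, where 0.0531% of all peaks were called higher and 0.0797% lower. Without WT replicates 5 and 6, DESeq2 called 2, the exon peak of Zfp36l2 and the 3′ UTR peak of Zfp1, where 2.11% were called higher and 0.16% lower. Every G12D value stood above every WT value for 3 Zfp peaks (4.00%, beside 1.7% of all peaks), those of Zfp36l2 in an exon and of Zfp874a and Zfp1 in 3′ UTRs.

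For the exon peak of Zfp36l2 the log2 fold change was 2.64 (SE 0.68, adjusted p = 0.108 in limma) and 1.95 in DESeq2 (adjusted p = 0.0270). Batch 1 alone gave 1.67 and batch 2 alone 3.61, and limma without WT replicates 5 and 6 gave 1.38. Leaving out any single tumour gave 2.05 to 3.16. This one peak weighed on the balance between regions. Exons held 40.9% ± 3.66 of Zfp signal in WT and 46.9% ± 7.81 in G12D, and without the Zfp36l2 exon peak 31.7% ± 5.15 and 28.7% ± 7.46. Over all annotated peaks exons held 38.6% ± 3.43 and 38.0% ± 2.06. The 3′ UTR classes held 48.3% ± 5.72 of Zfp signal in WT and 38.8% ± 3.52 in G12D, with the Zfp36l2 exon peak in the total. Over all annotated peaks they held 46.5% ± 4.88 in WT and 50.4% ± 2.60 in G12D.

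The other CCCH sites were nearer to the table's median or below it. The exon peak of Zfp36 had a log2 fold change of 1.61 in limma and 0.61 without WT replicates 5 and 6. Its 3 highest 3′ UTR peaks had 0.85, 0.55 and 0.76, and the miR-29 peak of Zfp36l1 had 0.84. Under TMM or DESeq2 size factors these 4 turned negative, between -0.13 and -0.52. None of them passed limma, DESeq2 or edgeR with all 12 tumours.

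The 3′ UTR peak of Zfp1, a C2H2 gene, had the largest fold change among the Zfp peaks. The peak (chr8:111670128-111670187, plus strand) holds a single listed site, an 8mer of miR-135. It ran from 0 through 0.489 to 4.44 in WT and from 7.69 through 19.6 to 45.4 in G12D. All 6 G12D tumours stood above every WT tumour, and 3 WT tumours were at 0. The values rest on 12 recovered reads in WT and 184 in G12D. The log2 fold change was 3.49 (SE 0.72, adjusted p = 0.108 in limma), 3.66 in DESeq2 (adjusted p = 0.000124) and 3.60 in edgeR (adjusted p = 0.0119). Batch 1 alone gave 3.36 and batch 2 alone 3.61, and limma without WT replicates 5 and 6 gave 2.90. By limma's fold change it ranked 3 among the 7527 tested peaks.

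A second Zfp1 peak, in an intron and without a miR-135 site, had 5.17 ± 5.86 in WT and 21.4 ± 10.8 in G12D. Its log2 fold change was 2.39 in limma (adjusted p = 0.108) and 1.58 in DESeq2 (adjusted p = 0.0430), and without WT replicates 5 and 6 it did not pass DESeq2 (adjusted p = 0.240). Input libraries were not analysed here, so the amount of Zfp1 RNA and its binding by Ago2 cannot be told apart.

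The miR-135 family is outside the 10 families drawn above and was taken up after the values of Zfp1 were seen. Ago2-bound miR-135b-5p, known for targeting Apc, rose from 1202 ± 487 in WT to 2741 ± 755 in G12D (log2 fold change 1.27, SE 0.31, adjusted p = 0.0385 in limma). It missed the threshold in 8 of 12 fits that left out 1 tumour, WT replicates 1, 2 and 3 and G12D replicates 1, 2, 3, 5 and 6, with log2 fold changes of 0.99 to 1.45 and adjusted p between 0.0145 and 0.0944 over the 12. Over the 62 tested peaks of any gene with a strong miR-135 site the median log2 fold change was 1.57, beside 1.33 for all peaks. Without WT replicates 5 and 6 it was 0.56, beside 0.38. Of the 62, DESeq2 called 15 higher, where 9.92% of all peaks were. Among the 9 with an 8mer the median was 1.72, and 0.69 without WT replicates 5 and 6. DESeq2 called 4 of the 9, and the Zfp1 peak had the largest fold change of them. That peak, which led to the choice of the family, is counted in all of these medians and calls. They are therefore not independent of it, and a link between the miRNA and these peaks was not tested. The other Zfp peak with a strong miR-135 site, the leading one of Zfp217, had 1.33 (adjusted p = 0.133 in limma).

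**Figure D5:**
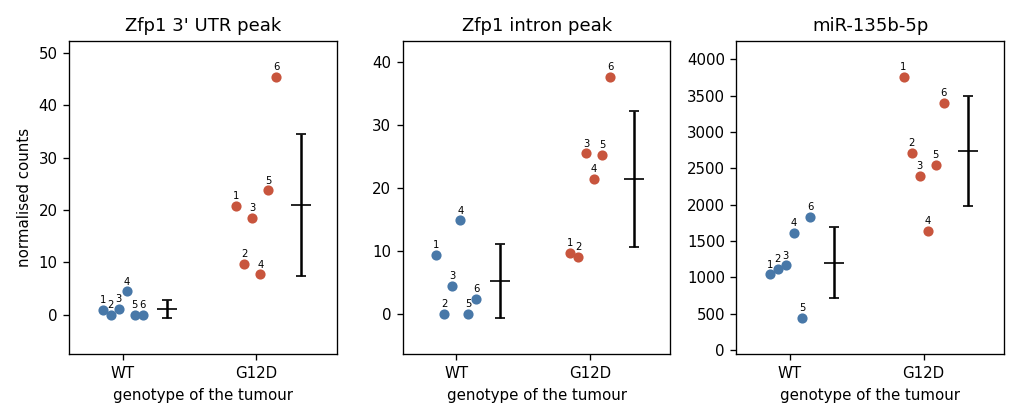
Points are tumours, numbered by replicate, for the 3′ UTR and intron peaks of Zfp1 and for miR-135b-5p in the miRNA libraries. The y axes give normalised counts, and bars at the right are means with SD (n = 6). The groups are separate for the 3′ UTR peak and overlap for the intron peak and for the miRNA.

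The remaining peaks called by DESeq2 were low or variable. Zfp874a, with 2 miR-23 sites, ran from 2.41 through 4.96 to 11.9 in WT and from 12.8 through 17.0 to 25.6 in G12D. Its groups did not overlap, and the log2 fold change was 1.56 in limma (adjusted p = 0.113), 1.42 in DESeq2 (adjusted p = 0.0358) and 1.31 without WT replicates 5 and 6. Zfp710, with a let-7 7mer, had 2.60 ± 2.75 in WT and 13.9 ± 9.52 in G12D (1.73 in DESeq2, adjusted p = 0.0379). Zfp827 had 1.35 in DESeq2 (adjusted p = 0.0379) and Zfp770 1.40 (adjusted p = 0.0406). Zfp292 had 2.54 (adjusted p = 0.0182), with values from 5.31 to 243 among the G12D tumours. All 5 missed the threshold in DESeq2 without WT replicates 5 and 6, with adjusted p between 0.0715 and 0.239.

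The miRNAs of the 10 site families drawn in the plot of family shares were also compared between genotypes. Of 35 tested members, limma called 1 higher in G12D (1.76% of all tested miRNAs were) and 0 lower (2.11%), with a median log2 fold change of 0.06, beside 0.04 for all 284. The called one was miR-23a-3p, which rose from 1895 ± 134 to 2755 ± 649 (log2 fold change 0.51, SE 0.11, adjusted p = 0.0189). Without WT replicate 2 or without G12D replicate 6 it missed the threshold. Its partner miR-23b-3p had 2714 ± 1097 and 3314 ± 704 and did not pass (adjusted p = 0.439). Of the 6 peaks with miR-23 8mers, DESeq2 called only that of Zfp874a, where it called 9.92% of all peaks higher. A link between the miRNA and these peaks was not tested. The means of the 6 ran from 11.4 to 53.8.

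Summed over members, let-7 stood at 16382 ± 1842 in WT and 16466 ± 1763 in G12D. The values for miR-196 were 16736 ± 1887 and 17488 ± 2317. miR-29, whose sites were second in number, was far less abundant, at 1494 ± 126 and 1319 ± 144. The miR-130 family, with 3 Zfp peaks, was lower still, at 498 ± 103 and 628 ± 70.2. The most abundant members of miR-181 were miR-181a-5p, at 4763 ± 1665 and 6106 ± 2358, and miR-181b-5p, at 3177 ± 411 and 3191 ± 423. Lower means in G12D were found for miR-181c-5p (2172 ± 430 and 1795 ± 368) and miR-181d-5p (2747 ± 650 and 1901 ± 390). For miR-181d-5p the adjusted p was 0.0857 in limma and 0.0371 in DESeq2. So the order of the families by Zfp peaks was not their order by miRNA level. miR-194-5p alone, at 12775 ± 1259 in WT, had sites in fewer Zfp peaks than miR-29.

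The cofactors of KRAB zinc fingers were also bound. Of 15 listed genes, 10 had peaks, 16 in all, among them Trim28, Setdb1, Chd4 and Dnmt1. Their median log2 fold change was 1.33, and limma and DESeq2 called 0 of the 16, where DESeq2 called 9.92% of all peaks higher. At an unadjusted p under 0.05, limma gave 7 higher and 0 lower, beside 35.9% of all tested peaks higher. The zinc finger genes with other names had a median of 1.25 over 65 peaks. DESeq2 called 2 of these higher, on Klf6 and Zbtb42, beside the same 9.92%. limma called 0, with 20 higher at an unadjusted p under 0.05, beside the same 35.9%.

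The deposited peak lists, 1 per genotype, had like shares of Zfp and of all peaks. Of the 75 Zfp peaks, 20 (26.7%) overlapped both lists, 53 (70.7%) only the G12D list and 2 only the WT list. Over all annotated peaks the shares were 26.2%, 71.9% and 1.96%. These lists have no replicates.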

How the data were processed

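RNA bound to Halo-Ago2 in 12 colonic tumours was sequenced by CLIP-type pulldown, per the labels' protocols. The submitters' processing notes name the builds mm10 and GRCm38 and the tools STAR 2.5.2b and DESeq2, without their roles. Peaks and miRNAs carry a deposited signal, which is a read count that the authors divided by 1 size factor per library. Each value was a whole multiple of 1 read, within 0.001 reads, for 100% of values, so counts were recovered from the deposited signal. The peak columns are named by model and number only, with no library type, and were read as the mRNA libraries. Where log2 fold changes or p-values come from the authors' deposited table, the sentence says so. The score in the deposited peak lists was not used, only their positions (overlap of at least 1 base). Peak region, gene and seed sites are the authors' annotation.

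Genotypes were compared on log2(value + 1) by limma-trend, with batch as a term (R 4.3.3, limma 3.58.1). Peaks with a mean of 5 or more (7527) and miRNAs with a mean of 10 or more (284) were tested, and p-values were adjusted after Benjamini and Hochberg, at 0.05. Fold changes from limma are on that log2(value + 1) scale. DESeq2 1.42.0 and edgeR 4.0.16 were run on recovered reads as alternatives. Other alternatives were pseudocount 5, other filters and scalings, array weights, each batch, a replicate block, leaving out tumours, and DESeq2 without WT replicates 5 and 6, which was added after seeing the data. The fit was run on simulated counts with 200 of 7527 peaks raised 4-fold. It recovered 85% of these and called 0.0819% of the others. The simulation had no batch effect and no shift of the whole table, so it does not show how the fit performs on these data. The Wilson interval covers counting error over peaks only. It treats the 75 peaks as independent, though 21 of them lie on 4 genes. Reads may be copies of one molecule. Depth of the mRNA libraries, 30607 to 974013 recovered reads, limits low peaks.

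Peaks named were the 10 highest in exons and in 3′ UTRs, genes with 3 or more peaks, the Zfp36 family, peaks called by DESeq2, peaks with 3 or more families or sites, and the 5 largest and 5 smallest fold changes at a mean of at least 20. Others named as holders of a site or members of a cluster were chosen after their values were seen. The members and lists were chosen with earlier results of these data known.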

Additional observations from a re-analysis of the deposited data

Results flagged for a closer look

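In 13 of 100 groups of 6 tumours, 1 sample stood apart from the rest by Dixon's test. Chance flags about 1 in 20 groups, and neighbouring peaks and peaks of 1 library are not independent. In 11 of the 13 the sample was WT replicate 4, each time the highest WT value. It had 280.5 normalised counts at the exon peak of Zfp770, 30.1 at that of Zfp827, 262 and 149 at 2 Zfp217 peaks in the 3′ UTR, and 120.5 at Zfp597. It had 74.6 at a 3′ UTR peak of Zfp91, 35.6 at the intron peak of Zfp292, 51.4 at Zfp26, 51.8 at Zfp369, 11.9 at Zfp874a and 4.44 at the 3′ UTR peak of Zfp1. The other flags were WT replicate 6 at the exon peak of Zfp516, with 60.3, and G12D replicate 1 at an exon peak of Zfp106, with 56.4. WT replicate 4 was the deepest WT library, with 770237 recovered reads, and shares batch 2 with the shallow WT replicates 5 and 6. The part of depth in these flags was not tested.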

How the results depend on the processing

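The count of Zfp peaks called between genotypes was 0 with limma and became 5 with pseudocount 5, 10 with array quality weights, 8 with DESeq2, 1 with edgeR, 2 with DESeq2 without WT replicates 5 and 6, and 5 in batch 2 alone. Leaving out 1 tumour at a time gave 0 to 40, the 40 being without WT replicate 4. The replicate block gave 0, with 22 Zfp peaks at an unadjusted p under 0.05 in place of 32 (27.7% of all peaks in place of 35.9%). The numbers were not taken as pairs, since not every same-numbered pair correlated (r from -0.11 to 0.65 around genotype means, and -0.52 to 0.31 around genotype and batch), and only those numbered 2 correlated best with each other. The Zfp median stood 0.08 above that of all peaks, and 0.24 above it at a mean of at least 20. For miRNAs of the site families the count of 1 became 0 with the replicate block. It was 0 to 1 on leaving out a tumour, the 0 being without WT replicate 2 or without G12D replicate 6. With DESeq2 it was 2, miR-23a-3p higher (adjusted p = 0.00145) and miR-181d-5p lower in G12D (adjusted p = 0.0371). DESeq2 called 2.55% of all miRNAs higher and 4.63% lower. Under the block miR-135b-5p also missed the threshold (adjusted p = 0.0516 in limma). The cause was not tested.

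Of 775 fold changes of single peaks under an alternative, 708 kept their direction and side of the threshold, 50 newly passed it and 17, in 8 peaks, turned negative. With TMM factors these were the Zfp36l1 peak (-0.16) and 3 Zfp36 peaks in the 3′ UTR (-0.13, -0.45 and -0.21), and with DESeq2 size factors the same 4 (-0.23, -0.20, -0.52 and -0.28) and an exon peak of Zfp106 (-0.039). Array weights turned that Zfp106 peak (-0.11) and Zfp516 in the 3′ UTR (-0.18). Without WT replicates 5 and 6 the Zfp758 exon peak (-0.049), the Zfp106 peak (-0.018) and a Zfp91 peak (-0.078) turned, and in DESeq2 without them -0.030, -0.031 and -0.017. The share of Zfp peaks in exons stayed within its interval under all alternatives run, but most of these could hardly move it. A mean of at least 5 and a single target symbol kept the same 75 peaks, and the G12D list kept 73. A mean of at least 20 gave 28.6% of 28 peaks, and the WT list 31.8% of 22. Depth limits the low peaks most.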
